A study of Mus musculus with 12 samples.

Results

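Pck1, G6pc, Fbp1, Pcx, Pklr, Slc2a2, Irs1, Irs2 and Igfbp1, 9 genes of glucose production and insulin signalling, were followed in mouse liver under 4 diets. They were taken from a table of 20422 genes by their symbols, and each gene value is the mean log2 intensity of the probe sets annotated to that symbol alone. Together the 9 genes were read by 75 of 212138 such probe sets, with 22 for Pcx, 11 for Pklr, 10 each for Pck1 and Slc2a2, 8 for Fbp1, 6 for G6pc, 4 for Igfbp1, 3 for Irs1 and 1 for Irs2. All mice were male C57Bl/6J offspring on a diet with 20% shortening that supplied 8.68% trans fatty acids (TFA), fed through their dams from before mating. The ASP + MSG + TFA diet added aspartame (ASP, a sweetener) at 0.25 g/L and monosodium glutamate (MSG, a flavour enhancer) at 0.75 g/L to the drinking water, the ASP + TFA and MSG + TFA diets added either additive alone at the same dose, and the TFA diet added neither. Livers were taken at 20 weeks of age after an overnight fast, and each of the 12 Affymetrix Mouse Gene 1.0 ST arrays, 3 per diet, held RNA pooled from 5 mice. No group was fed without trans fat, so every difference described here is one between additives on that background.

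The fasting liver makes glucose from lactate, pyruvate, alanine and glycerol. Pyruvate carboxylase (Pcx) and phosphoenolpyruvate carboxykinase (Pck1) carry carbon past the irreversible pyruvate kinase step of glycolysis, fructose bisphosphatase (Fbp1) reverses phosphofructokinase, and the catalytic subunit of glucose-6-phosphatase (G6pc) releases free glucose, which crosses the membrane through the transporter GLUT2 (Slc2a2). Insulin, acting through its receptor, the docking proteins IRS1 and IRS2 and the kinase AKT, keeps FOXO transcription factors out of the nucleus and so lowers G6pc, Pck1, Irs2 and Igfbp1, the last encoding a secreted binding protein of insulin-like growth factors. Liver pyruvate kinase (Pklr) runs the opposite way, in glycolysis, and its transcript is known to follow glucose through the factor ChREBP.

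A forkhead-type core recognised by FOXO factors, TGTTTTG on either strand, occurred in the promoter windows of 4 of the 9 genes, and these 4 are shown so that their later values can be read beside them. Each window runs from 250 bases before to 50 bases after a RefSeq start of the gene (GRCm38.p6), 5′ to 3′ on the strand of the gene. Pcx and Pklr had windows for different starts, so the 9 genes had 11 windows, of which 4 held the core. The G6pc window is chr11:101367466-101367765 on the plus strand, that of Igfbp1 chr11:7197537-7197836 on the plus strand, that of Irs1 chr1:82291390-82291689 on the minus strand and that of Irs2 chr8:11008880-11009179 on the minus strand. Capitals mark TGTTTTG or its reverse complement CAAAACA, and the E-box CACGTG.
G6pc: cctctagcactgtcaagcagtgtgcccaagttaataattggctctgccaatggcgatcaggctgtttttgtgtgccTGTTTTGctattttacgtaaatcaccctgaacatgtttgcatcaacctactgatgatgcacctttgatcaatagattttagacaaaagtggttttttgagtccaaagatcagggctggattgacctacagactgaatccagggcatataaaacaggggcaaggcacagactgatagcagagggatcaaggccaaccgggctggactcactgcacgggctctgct
Igfbp1: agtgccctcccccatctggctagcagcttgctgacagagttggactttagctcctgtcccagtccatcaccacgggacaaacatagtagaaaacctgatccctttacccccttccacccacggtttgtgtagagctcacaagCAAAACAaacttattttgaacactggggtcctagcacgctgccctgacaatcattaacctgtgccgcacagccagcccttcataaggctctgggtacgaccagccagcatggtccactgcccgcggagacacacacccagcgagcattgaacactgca
Irs1: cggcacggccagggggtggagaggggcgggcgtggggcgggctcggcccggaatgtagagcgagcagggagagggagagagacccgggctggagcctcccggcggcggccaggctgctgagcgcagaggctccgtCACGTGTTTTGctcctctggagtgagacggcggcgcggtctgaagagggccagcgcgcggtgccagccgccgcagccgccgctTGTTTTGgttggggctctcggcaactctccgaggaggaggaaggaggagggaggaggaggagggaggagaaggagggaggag
Irs2: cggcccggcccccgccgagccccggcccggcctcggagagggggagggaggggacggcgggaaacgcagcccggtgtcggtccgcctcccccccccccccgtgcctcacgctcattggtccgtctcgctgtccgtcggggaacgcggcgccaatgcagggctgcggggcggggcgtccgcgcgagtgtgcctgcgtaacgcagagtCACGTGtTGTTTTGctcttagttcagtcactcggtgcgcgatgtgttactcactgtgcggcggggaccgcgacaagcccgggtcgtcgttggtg
The core began at position -174 relative to the start in G6pc, at -108 on the opposite strand in Igfbp1, at -111 and -32 in Irs1 and at -37 in Irs2. In Irs1 the E-box at -115 shared its last letters with the core at -111, and in Irs2 an E-box stood at -44, just before the core. Pcx had an E-box at -248 in the window that begins at chr19:4510222, and none in its other window. Counted per window, the core was found in 6.28% of 32851 promoter windows, and the E-box in 7.15%. The core of a cAMP response element, TGACGT, was found among the 9 genes in Pck1 alone, at -91 on the opposite strand (7.51% of all windows). These are matches of letters only.

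The pools were liver by their transcripts, with 11 hepatocyte markers at a mean log2 intensity of 13.55 to 13.77 in every pool and 7 kidney tubule markers at 5.77 to 6.00. The signal of markers of other tissues varied between pools, and its source was not tested. Of 14 skeletal muscle markers, Mylpf, Myh4, Myh1, Actn3, Pvalb and Tcap were below the median probe set of the arrays in every pool. The other muscle markers were not. The mean of 14 skeletal muscle markers was 6.04 to 6.47 in ASP + MSG + TFA pools, 5.93 to 6.15 in ASP + TFA pools and 5.93 to 6.40 in MSG + TFA pools, against 6.60 to 7.09 in TFA pools. No additive diet overlapped the TFA diet in this mean, so diet and muscle signal cannot be told apart in comparisons with TFA. Values adjusted for this mean below carry that limit. The mean of 12 pancreatic acinar markers was highest in ASP + MSG + TFA pool 1 (7.83), ASP + MSG + TFA pool 2 (8.15) and ASP + TFA pool 3 (8.73), and was at most 7.33 elsewhere. In RNA from whole liver, fewer cells of a type and less RNA per cell cannot be told apart.

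G6pc, the final enzyme of glucose release, stood highest under the combined additives. Its log2 intensity was 13.79, 13.63 and 13.82 in ASP + MSG + TFA pools, 13.31, 13.61 and 13.39 in ASP + TFA pools and 13.43, 13.62 and 13.45 in MSG + TFA pools, against 13.66, 13.58 and 13.35 in TFA pools. All 3 ASP + MSG + TFA pools lay above every pool of either single additive, though pool 2 only narrowly, while they overlapped the TFA pools. On the log2 scale, ASP + MSG + TFA exceeded ASP + TFA by 0.31 (95% interval 0.08 to 0.54, 1.24-fold, limma adjusted p = 0.44), MSG + TFA by 0.24 (0.01 to 0.47, adjusted p = 0.799) and TFA by 0.21 (-0.02 to 0.44, adjusted p = 0.541). With array weights the first of these differences was 0.18 (limma adjusted p = 0.304), and the difference from TFA was 0.12 without TFA pool 3 (adjusted p = 0.726) and 0.05 when adjusted for the mean of the muscle markers (adjusted p = 0.892). Along the transcript, 6 of 6 G6pc probe sets were higher in ASP + MSG + TFA pools than in pools of each other diet. Here and below, probe sets of a gene read the same pools, so their agreement does not replicate a diet difference. For G6pc the difference with both additives exceeded the sum of the single differences by 0.34 (interval 0.01 to 0.67, limma adjusted p = 0.653). Among 23 alternative settings this interaction was smallest with array weights, at 0.23 (limma adjusted p = 0.43). It was largest with the muscle adjustment, at 0.58 (limma adjusted p = 0.546). Without ASP + TFA pool 1 or without TFA pool 1 it was 0.27 (limma adjusted p = 0.691 and 0.794). Groups that do not overlap were frequent in the same arrays, at 10.9% of all genes between ASP + MSG + TFA and ASP + TFA (4.31% with ASP + MSG + TFA higher) and 13.3% between ASP + MSG + TFA and MSG + TFA (7.28% higher). The mean of 7 adipocyte markers was also highest under the combined additives. It was 7.39 to 7.59 in ASP + MSG + TFA pools, 6.90 to 7.37 in ASP + TFA pools and 7.17 to 7.31 in MSG + TFA pools, against 7.22 to 7.25 in TFA pools. With both additives 6 of 7 were higher than with ASP alone, 6 of 7 than with MSG alone and 5 of 7 than in TFA pools. Limma called 0 of them. Of these markers, Adipoq (5.16 to 5.58), Plin1 and Lep were below the median probe set of the arrays in every pool, while Cfd (8.02 to 10.26), Cidec (8.13 to 9.35), Retn and Fabp4 were not. Over the 12 pools, G6pc and the adipocyte marker mean had r = 0.567, picked as the largest in size among the marker lists. Next were pancreatic islet markers (-0.401) and red blood cell markers (0.355). The part of these markers in the G6pc values was not tested.

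**Figure D1:**
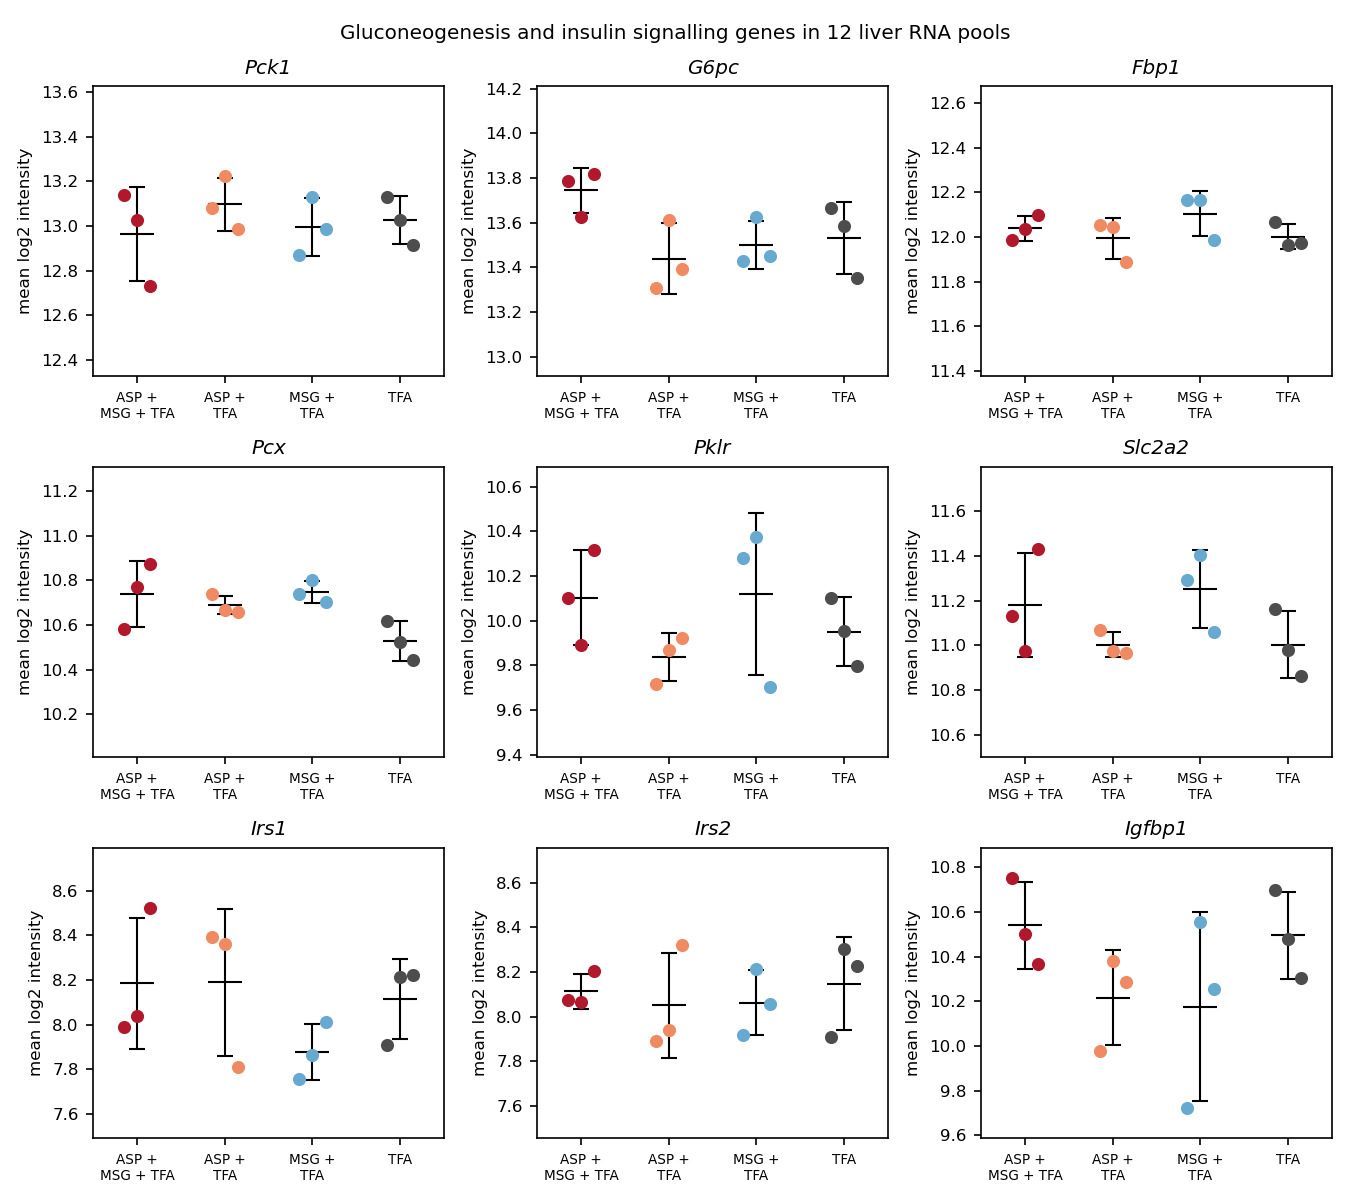
Mean log2 intensity of each gene in every pool (points, pools 1 to 3 in order within a diet), with the diet mean and SD (bars, n = 3). Every panel spans the same height, and the G6pc points of the ASP + MSG + TFA diet (13.63 to 13.82) sit above all points of the ASP + TFA and MSG + TFA diets.

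Pck1 and Fbp1, the other committed enzymes on the way to glucose, differed little. Pck1, the classic fasting-induced gene of this pathway, averaged 12.97 ± 0.211 in ASP + MSG + TFA pools, 13.10 ± 0.119 in ASP + TFA pools and 13.00 ± 0.131 in MSG + TFA pools, against 13.03 ± 0.108 in TFA pools (log2, SD, n = 3 each). Its 3 differences from TFA lay between -0.06 and 0.07, with intervals that reached 0.81-fold and 1.25-fold at their ends. Both the lowest pool, ASP + MSG + TFA pool 3 at 12.73, and a pool near the top, ASP + MSG + TFA pool 1 at 13.14, came from the same diet. Fbp1 averaged 12.04 ± 0.0555 in ASP + MSG + TFA pools, 12.00 ± 0.0918 in ASP + TFA pools and 12.11 ± 0.102 in MSG + TFA pools, against 12.00 ± 0.056 in TFA pools. It was the steadiest of the 9 genes, with a range of 0.275 over the 12 pools. Its largest difference from TFA was 0.10 with MSG (interval -0.07 to 0.28, limma adjusted p = 0.951), and it was 0.16 without MSG + TFA pool 3, 0.034 with the median over probe sets and 0.05 with the muscle adjustment.

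Pcx, which makes oxaloacetate from pyruvate in the mitochondrion, was lowest in the TFA pools. It measured 10.58, 10.77 and 10.87 in ASP + MSG + TFA pools, 10.74, 10.67 and 10.66 in ASP + TFA pools and 10.74, 10.80 and 10.70 in MSG + TFA pools, against 10.62, 10.52 and 10.44 in TFA pools. Every ASP + TFA pool and every MSG + TFA pool was above every TFA pool, whereas ASP + MSG + TFA pool 1 was below TFA pool 1. The log2 differences from TFA were 0.21 with both additives (interval 0.02 to 0.40), 0.16 with ASP (-0.03 to 0.35) and 0.22 with MSG (0.03 to 0.41), and with adjusted limma p-values of 0.447, 0.59 and 0.795 none of these differences passed. These comparisons share the TFA pools. Higher values than in TFA pools were read by 18, 17 and 20 of the 22 Pcx probe sets with both additives, with ASP and with MSG. Groups without overlap made up 13.4% of all genes between ASP + TFA and TFA (8.48% with ASP + TFA higher) and 13.2% between MSG + TFA and TFA (6.45% with MSG + TFA higher), and 0 of the 9 genes were without overlap between ASP + MSG + TFA and TFA (17.9% of all genes) or between ASP + TFA and MSG + TFA (9.05%).

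The muscle markers were highest in the TFA pools, where Pcx was lowest. There 14 of 14 had a higher mean than under each additive diet, and limma called 7 in ASP + TFA against TFA. Adjusted for the muscle marker mean, the Pcx difference was 0.14 for ASP + MSG + TFA (limma adjusted p = 0.623), 0.06 for ASP + TFA (adjusted p = 0.89) and 0.13 for MSG + TFA (adjusted p = 0.776), each against TFA. Since that mean separates TFA from every additive diet, this adjustment cannot tell diet from muscle signal. Leaving out the 3 pools richest in acinar transcripts left ASP + MSG + TFA pool 3, the highest in Pcx, alone for its diet. The ASP + MSG + TFA difference in Pcx was then 0.34, over 1.5 times that with all pools. Without ASP + MSG + TFA pool 3 it was 0.15 (limma adjusted p = 0.607).

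**Figure D2:**
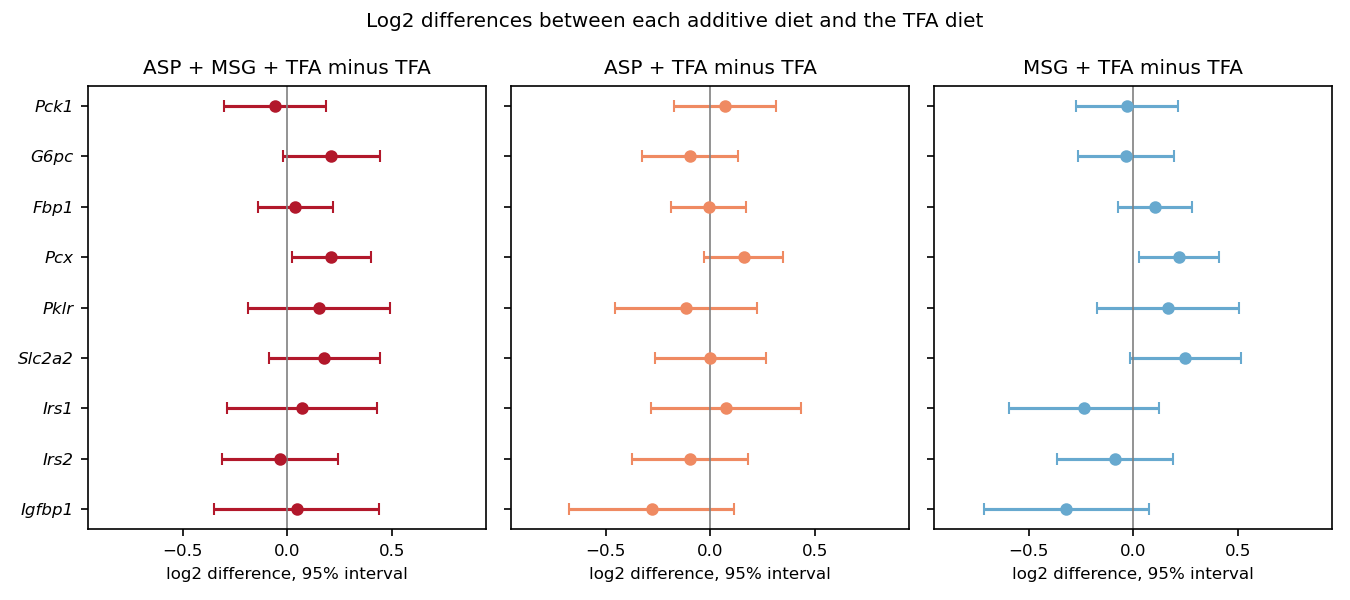
Log2 difference of each gene between an additive diet and the TFA diet, with the 95% interval of the limma fit. The intervals of Pcx lie above 0 for ASP + MSG + TFA (0.02 to 0.40) and for MSG + TFA (0.03 to 0.41), and all other intervals cross 0.

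Slc2a2 and Pklr, the glucose transporter and the glycolytic enzyme, leaned towards the diets with MSG. Slc2a2 measured 11.13, 10.97 and 11.43 in ASP + MSG + TFA pools, 11.07, 10.98 and 10.97 in ASP + TFA pools and 11.29, 11.41 and 11.06 in MSG + TFA pools, against 11.16, 10.98 and 10.87 in TFA pools. High pools occurred under both MSG diets, but each of these diets also had at least a pool within the TFA range. Averaged over both backgrounds, the diets with MSG exceeded those without by 0.21 (interval 0.03 to 0.40, limma adjusted p = 0.66). All 10 Slc2a2 probe sets were higher with ASP + MSG and with MSG than in TFA pools, and all 10 were lower in ASP + TFA than in MSG + TFA pools. Adjusted for the muscle marker mean, the MSG difference of Slc2a2 was 0.11 (limma adjusted p = 0.696). Without the 3 pools richest in acinar transcripts it was 0.33, with ASP + MSG + TFA pool 3 alone for its diet.

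Pklr measured 10.10, 9.89 and 10.32 in ASP + MSG + TFA pools, 9.72, 9.87 and 9.92 in ASP + TFA pools and 10.28, 10.37 and 9.70 in MSG + TFA pools, against 10.10, 9.95 and 9.80 in TFA pools. MSG + TFA held both the highest Pklr pool and the lowest, so the groups overlapped widely. The MSG difference over both backgrounds was 0.22 (interval -0.02 to 0.46, limma adjusted p = 0.762). It was 0.34 without the 3 acinar-rich pools, with ASP + MSG + TFA pool 3 alone for its diet. Of the Pklr probe sets, 10 of 11 were higher in MSG + TFA than in TFA pools. The spread of Pklr within diets was larger than that of 92.1% of all genes.

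Irs1 and Irs2, the docking proteins below the insulin receptor, differed between diets by less than the test could separate from their spread. Irs1 ranged over 7.99 to 8.52 in ASP + MSG + TFA pools, 7.81 to 8.39 in ASP + TFA pools and 7.76 to 8.01 in MSG + TFA pools, against 7.91 to 8.22 in TFA pools. MSG + TFA pools were the lowest on average, by 0.31 below ASP + MSG + TFA (interval of that difference -0.05 to 0.66) and by 0.31 below ASP + TFA (-0.05 to 0.67), with limma adjusted p-values of 0.819 and 0.892. Single pools weighed on both values, as the first was 0.14 without ASP + MSG + TFA pool 3 and the second 0.50 without ASP + TFA pool 3. Without the 3 acinar-rich pools, which left ASP + MSG + TFA pool 3 alone for its diet, the first was 0.65. The first was 0.47 when adjusted for the acinar mean. All 3 Irs1 probe sets were higher in ASP + MSG + TFA and in ASP + TFA than in MSG + TFA pools. Irs2 averaged 8.11 ± 0.0786 in ASP + MSG + TFA pools, 8.05 ± 0.234 in ASP + TFA pools and 8.06 ± 0.147 in MSG + TFA pools, against 8.15 ± 0.209 in TFA pools. A single probe set read Irs2, so its values could not be set beside other probe sets of the transcript.

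Igfbp1, a marker of low insulin action in liver, varied most of the 9 genes, over 1.03 log2 units across the pools. It measured 10.75, 10.50 and 10.37 in ASP + MSG + TFA pools, 9.98, 10.38 and 10.29 in ASP + TFA pools and 9.72, 10.56 and 10.25 in MSG + TFA pools, against 10.70, 10.48 and 10.31 in TFA pools. The ASP + MSG + TFA and TFA pools covered nearly the same range, and 1 pool of each single additive, pool 1 in both diets, was low. Relative to TFA the log2 difference was 0.04 with both additives (interval -0.35 to 0.44), -0.28 with ASP (-0.67 to 0.11) and -0.32 with MSG (-0.71 to 0.07). The difference with ASP was -0.16 without ASP + TFA pool 1 and -0.18 without TFA pool 1, that with MSG was -0.09 without MSG + TFA pool 1 and -0.51 without MSG + TFA pool 2, and that with both additives changed sign without ASP + MSG + TFA pool 1 (-0.06) or TFA pool 3 (-0.05). Adjusted for the muscle marker mean, the differences were -0.34 with both additives, -0.77 with ASP and -0.78 with MSG. The combined difference exceeded the sum of the single ones by 0.64 (interval 0.09 to 1.20, limma adjusted p = 0.609), a pattern of the same sign as in G6pc and in 4 of 4 Igfbp1 probe sets. Without MSG + TFA pool 1 this interaction was 0.42 (limma adjusted p = 0.753). Adjusted for the muscle marker mean it was 1.22 (limma adjusted p = 0.443). Without the 3 acinar-rich pools it was 0.51, with ASP + MSG + TFA pool 3 alone for its diet.

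**Figure D3:**
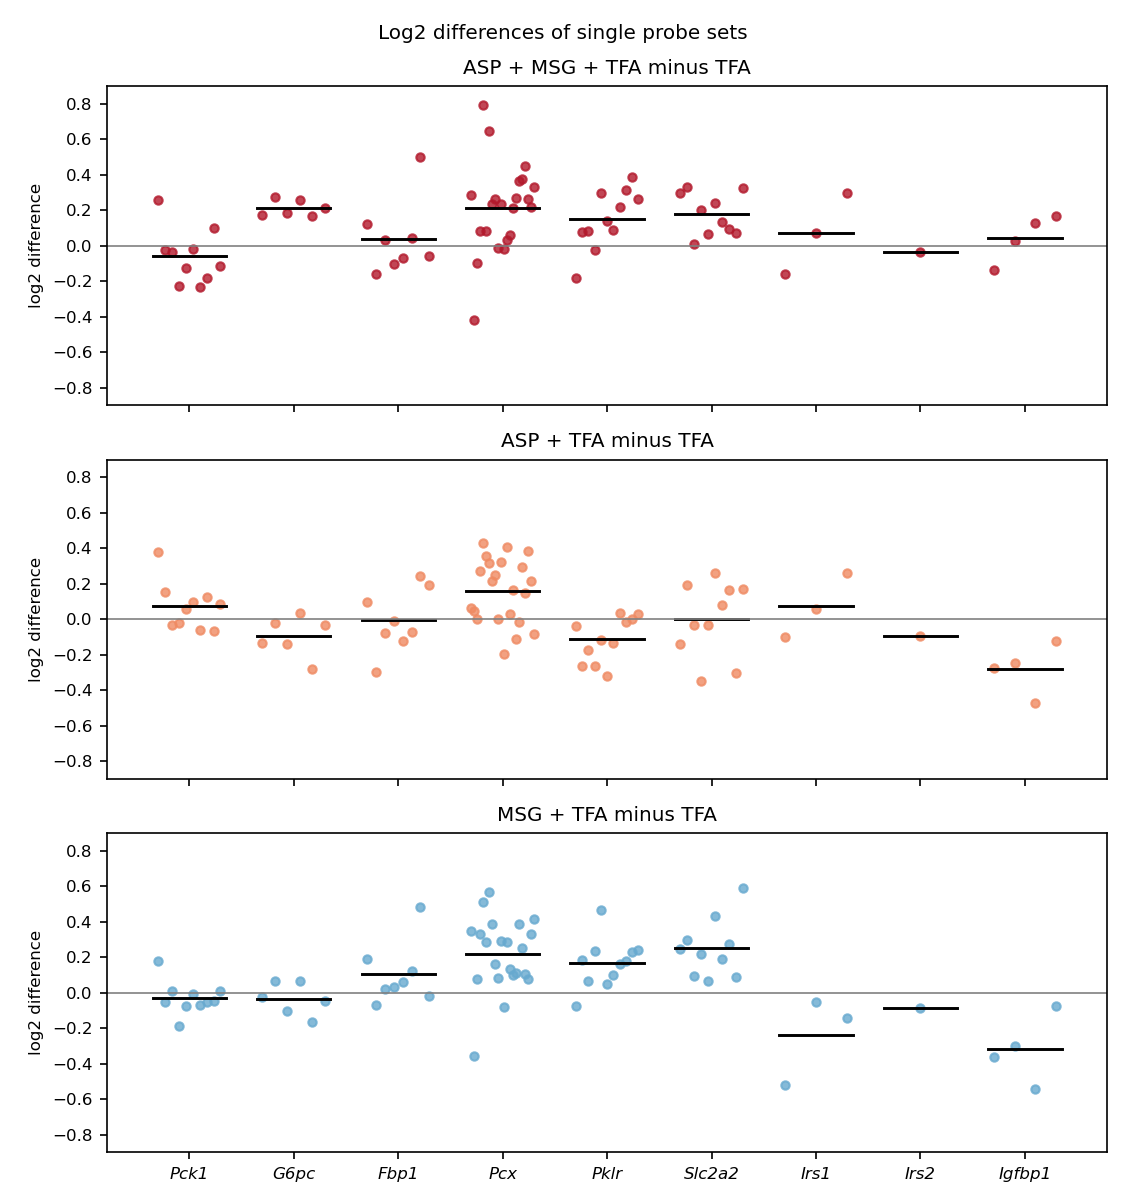
Log2 difference of each single probe set (points) between an additive diet and the TFA diet, with the mean over the probe sets of a gene (black line). The 6 G6pc points lie above 0 with both additives (0.16 to 0.27), and the 4 Igfbp1 points lie below 0 with ASP (-0.47 to -0.13) and with MSG (-0.54 to -0.07).

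Over all genes and tests, limma called 0 of the 9 genes at an adjusted p under 0.05 in every comparison. The share of all 20422 genes called was 0.0392% for ASP + MSG + TFA against TFA, 0.284% for ASP + TFA against TFA, 0.0196% for MSG + TFA against TFA, 0.0245% for ASP + MSG + TFA against ASP + TFA, 0.0049% for ASP + MSG + TFA against MSG + TFA and 0% for ASP + TFA against MSG + TFA. It was 0% for the ASP difference and 0.00979% for the MSG difference over both backgrounds, 0.0686% for the interaction and 0.113% for the F test of any diet difference. At an unadjusted p under 0.05, 1 of 9 genes passed in each of ASP + MSG + TFA against TFA (Pcx, 10.1% of all genes), MSG + TFA against TFA (Pcx, 5.81%), ASP + MSG + TFA against ASP + TFA (G6pc, 8.41%) and ASP + MSG + TFA against MSG + TFA (G6pc, 6.14%). It was 0 of 9 for ASP + TFA against TFA (10.1%) and against MSG + TFA (5.7%), 2 of 9 for the MSG difference (Pcx and Slc2a2, 6.77%), 0 of 9 for the ASP difference (9.12%), 2 of 9 for the interaction (G6pc and Igfbp1, 7.39%) and 0 of 9 for the F test (9.16%). In the F test G6pc had the smallest p (0.0634, adjusted p = 0.566), followed by Pcx (0.089, adjusted p = 0.618).

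The median log2 difference of the 9 genes was 0.070 with both additives, -0.0066 with ASP and -0.030 with MSG, beside medians over all genes of 0.0072, 0.022 and 0.0036. The 95% intervals of a diet difference had half-widths of 0.18 for Fbp1 to 0.39 for Igfbp1, and those against TFA reached no further than 0.611-fold (Igfbp1 with MSG) and 1.43-fold (Slc2a2 with MSG).

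The 9 genes did not vary as 1 block from pool to pool. Among 36 pairs, Pklr and Slc2a2 were most alike over the 12 pools (Pearson r = 0.858, permutation p = 0.00047, adjusted p = 0.0169 over the 36 pairs; Spearman rho = 0.72, permutation p = 0.0106, adjusted p = 0.0956). The coefficient was 0.837 after the diet means were removed and 0.707 without the 2 pools farthest from the median of Pklr. Fbp1 and Slc2a2 followed (r = 0.782, permutation p = 0.00265, adjusted p = 0.0477, with rho = 0.804, permutation p = 0.00237, adjusted p = 0.0853), with 0.695 within diets and 0.729 without the 2 farthest pools. These 2 pairs passed by Pearson r and 0 pairs passed by rho, where 6 pairs had an unadjusted p under 0.05 for r. Neither pair passed without MSG + TFA pool 1, MSG + TFA pool 2 or TFA pool 1, or with the median over probe sets in place of the mean, and r then and in the other settings was at least 0.533 for Pklr and at least 0.567 for Fbp1.

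G6pc and Igfbp1, which both carry the forkhead-type core shown above, had r = 0.70 (permutation p = 0.0102, adjusted p = 0.103, with rho = 0.755, permutation p = 0.0065, adjusted p = 0.0956), 0.66 within diets and 0.664 without the 2 farthest pools. Irs1 and Irs2, which carry it too, had r = -0.008 with each other (permutation p = 0.98, adjusted p = 0.98, with rho = -0.0909, permutation p = 0.784). G6pc had r = 0.143 with Irs1 and 0.0704 with Irs2, and Igfbp1 had r = -0.012 with Irs1 and 0.286 with Irs2 (permutation adjusted p at least 0.808). A link between the core and these correlations was not tested. Pck1 and Igfbp1 had r = 0.452 over all pools (permutation p = 0.138, adjusted p = 0.498, with rho = 0.629, permutation p = 0.0321, adjusted p = 0.231), 0.726 without the 2 farthest pools and 0.748 within diets. Pck1 and G6pc, often described as a pair, had r = 0.0754 (permutation p = 0.82, adjusted p = 0.955, with rho = 0.245, permutation p = 0.444, adjusted p = 0.8), and 0.652 without the 2 pools farthest from the median of Pck1.

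**Figure D4:**
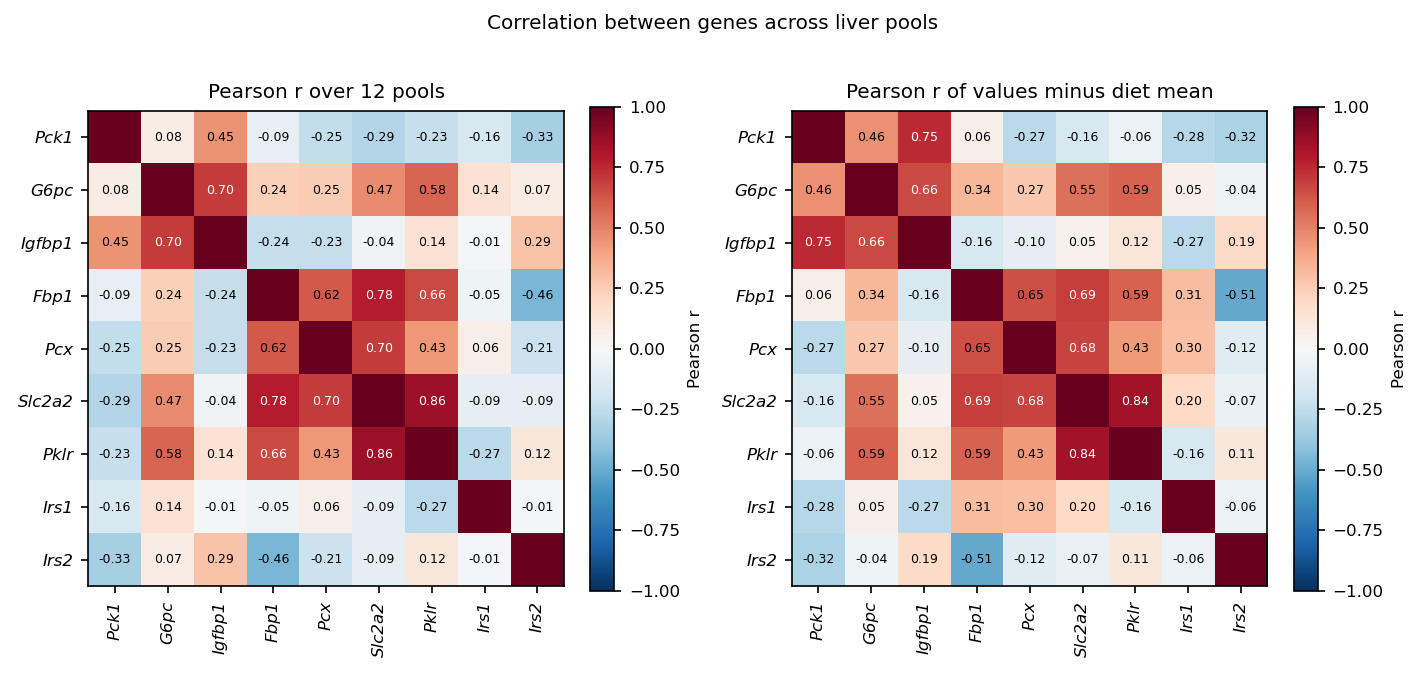
Pearson r between the 9 genes over 12 pools (left) and after the diet mean was taken from each value (right), with genes on both axes and the diagonal left unlabelled. In the gene order chosen for display, Fbp1, Pcx, Slc2a2 and Pklr stand together with r between 0.43 and 0.86 on the left. G6pc reaches 0.70 with Igfbp1, 0.58 with Pklr and 0.475 with Slc2a2.

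Each gene was also set against 15121 other genes read by at least 3 probe sets, and the 3 with the highest r over the 12 pools are given as a description, since they were picked as the highest and all values come from the same arrays. Pklr was most like Fads1 (0.94), a fatty acid desaturase, then Mbnl3 and Gprin3. Slc2a2 was most like Acad10 (0.939), an acyl-CoA dehydrogenase family gene, then Sfxn1 and Cnn3, and Fbp1 most like Ltbp4 (0.921), Vwce and Cpped1. For G6pc the genes were Nfatc1 (0.899), a calcineurin-regulated transcription factor, Rbpms2 and Gcdh, an enzyme of lysine breakdown, and for Igfbp1 Zfp579 (0.919), the splicing kinase Clk1 and Raet1e. Pcx was most like the GABA transporter gene Slc6a13 (0.876), the oxidative stress factor Nfe2l2 and the splicing factor Prpf8, and Pck1 most like Sf3a2 (0.838), Tmem107 and Slc35b2. Irs1 went with Zfp873 (0.917), the FGF receptor Fgfr4 and the phosphodiesterase Pde9a, and Irs2 with Samsn1 (0.891), Letm2 and Foxo6.

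Around these genes, 97 of 101 listed pathway genes had a value, and limma called 0 of them in any comparison. At an unadjusted p under 0.05 there were, of 97, 6 with both additives (10.1% of all genes), 5 with ASP (10.1%) and 2 with MSG (5.81%) against TFA, 11 for ASP + MSG + TFA against ASP + TFA (8.41%), 5 against MSG + TFA (6.14%) and 4 for ASP + TFA against MSG + TFA (5.7%). There were 7 for the MSG difference (6.77%), 1 for the ASP difference (9.12%), 4 for the interaction (7.39%) and 6 in the F test (9.16%), so that most of these counts lay at or below the share of all genes. The genes named below are the 3 of each list with the smallest F test p. That rule did not set which comparison is given for each gene.

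Among 21 other enzymes and regulators of gluconeogenesis and glycolysis, the median difference from TFA was -0.0092 with both additives, -0.0097 with ASP and 0.025 with MSG. Pkm2, the muscle-type pyruvate kinase, averaged 7.88 ± 0.166 in ASP + MSG + TFA pools, 7.47 ± 0.213 in ASP + TFA pools and 7.70 ± 0.103 in MSG + TFA pools, against 7.80 ± 0.108 in TFA pools. The ASP + MSG + TFA pools did not overlap the ASP + TFA pools (difference 0.41, limma adjusted p = 0.37). In that comparison 4.31% of all genes were higher in ASP + MSG + TFA without overlap. Gckr was at 10.45 ± 0.15 in ASP + MSG + TFA pools and at 10.20 ± 0.0789, 10.24 ± 0.0366 and 10.24 ± 0.0396 in ASP + TFA, MSG + TFA and TFA pools. The ASP + MSG + TFA pools did not overlap any other diet and were 0.21 above TFA (limma adjusted p = 0.439). Higher in ASP + MSG + TFA without overlap were 10% of all genes against TFA, 4.31% against ASP + TFA and 7.28% against MSG + TFA. Without ASP + MSG + TFA pool 3, a setting chosen after seeing the data, Gckr was 0.13 above TFA. Ldha, lactate dehydrogenase A, was 0.23 higher with ASP than in TFA pools (limma adjusted p = 0.316). All Ldha pools of ASP + MSG + TFA (at least 11.93), ASP + TFA (11.99) and MSG + TFA (11.94) lay above every TFA pool (at most 11.87). Groups higher than TFA without overlap made up 10%, 8.48% and 6.45% of all genes in these comparisons.

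Among 27 regulators of gluconeogenic transcription the median difference from TFA was -0.0051 with both additives, 0.037 with ASP and 0.034 with MSG. Foxo4, a FOXO factor, was 0.34 lower with both additives than with ASP alone (limma adjusted p = 0.313). Its mean was 6.52 ± 0.0517 in ASP + MSG + TFA, 6.86 ± 0.0522 in ASP + TFA, 6.74 ± 0.125 in MSG + TFA and 6.70 ± 0.133 in TFA pools. Adcy6, an adenylyl cyclase that makes the cAMP of the glucagon signal, was 0.23 above TFA with both additives (limma adjusted p = 0.33). Its ASP + MSG + TFA pools and its MSG + TFA pools lay above all TFA pools, as in 10% and 6.45% of all genes. The ASP + TFA pools overlapped the TFA pools. Sik2, a kinase that restrains CREB coactivators, differed by -0.27 between ASP + MSG + TFA and MSG + TFA (limma adjusted p = 0.716). It averaged 7.75 in ASP + MSG + TFA, 7.89 in ASP + TFA, 8.03 in MSG + TFA and 7.86 in TFA pools. Ppargc1a, the coactivator of this programme, was named outside the rule after its values were seen, and it differed from TFA by -0.05 with both additives (adjusted p = 0.898), -0.08 with ASP and -0.11 with MSG (adjusted p = 0.87 and 0.973).

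The list labelled insulin receptor to AKT held 24 genes. It also took in genes downstream of AKT, such as Tsc2, Mtor, Rps6kb1 and Gsk3b, and the receptor-binding inhibitors Grb10 and Grb14. Of the 24, 16 were lower and 8 higher with both additives than in TFA pools. The list median was -0.075 with both additives (0.0072 over all genes), -0.019 with ASP and -0.0068 with MSG. The share of all genes that were lower was not counted. Pik3r2, a regulatory subunit of phosphoinositide kinase, averaged 7.00 in ASP + MSG + TFA, 7.32 in ASP + TFA, 7.04 in MSG + TFA and 7.12 in TFA pools. It was 0.32 lower with both additives than with ASP (limma adjusted p = 0.405). Akt1 averaged 8.33, 8.58, 8.52 and 8.49 in the same order and was 0.26 lower in the same comparison (limma adjusted p = 0.554). Rictor, a subunit of the mTOR complex that phosphorylates AKT, was 0.26 below TFA with both additives (limma adjusted p = 0.495). The medians of 15 inhibitors of insulin signalling were -0.039, -0.046 and -0.035 with both additives, ASP and MSG. Trib3, a pseudokinase that binds AKT, was 0.25 above TFA with MSG without overlap (limma adjusted p = 0.795). In that comparison 6.45% of all genes were higher without overlap. Prkcd, a protein kinase C, was 0.23 below TFA with ASP (limma adjusted p = 0.366). All Prkcd pools of ASP + MSG + TFA (at most 7.2501), ASP + TFA (7.1743) and MSG + TFA (7.1851) lay below every TFA pool (at least 7.2542). Groups without overlap, in either direction, made up 17.9%, 13.4% and 13.2% of all genes in these comparisons. Socs3, induced by cytokines, was 0.24 lower with both additives than with ASP (limma adjusted p = 0.561). It averaged 6.63 in ASP + MSG + TFA, 6.87 in ASP + TFA, 6.64 in MSG + TFA and 6.69 in TFA pools. For 10 insulin-like growth factor genes and binding proteins the medians were -0.085, 0.025 and 0.0032 with both additives, ASP and MSG. Igf2 was 0.31 higher with ASP (6.24) than with MSG (5.93, limma adjusted p = 0.805), with 6.04 in TFA pools. Igfbp2 was 0.23 below TFA with both additives (limma adjusted p = 0.424) and Igfbp5 was 0.24 above it (limma adjusted p = 0.49). All diet means of Igf2, Igfbp5, Trib3, Socs3 and Foxo4 were below the median probe set of the arrays (6.89).

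**Figure D5:**
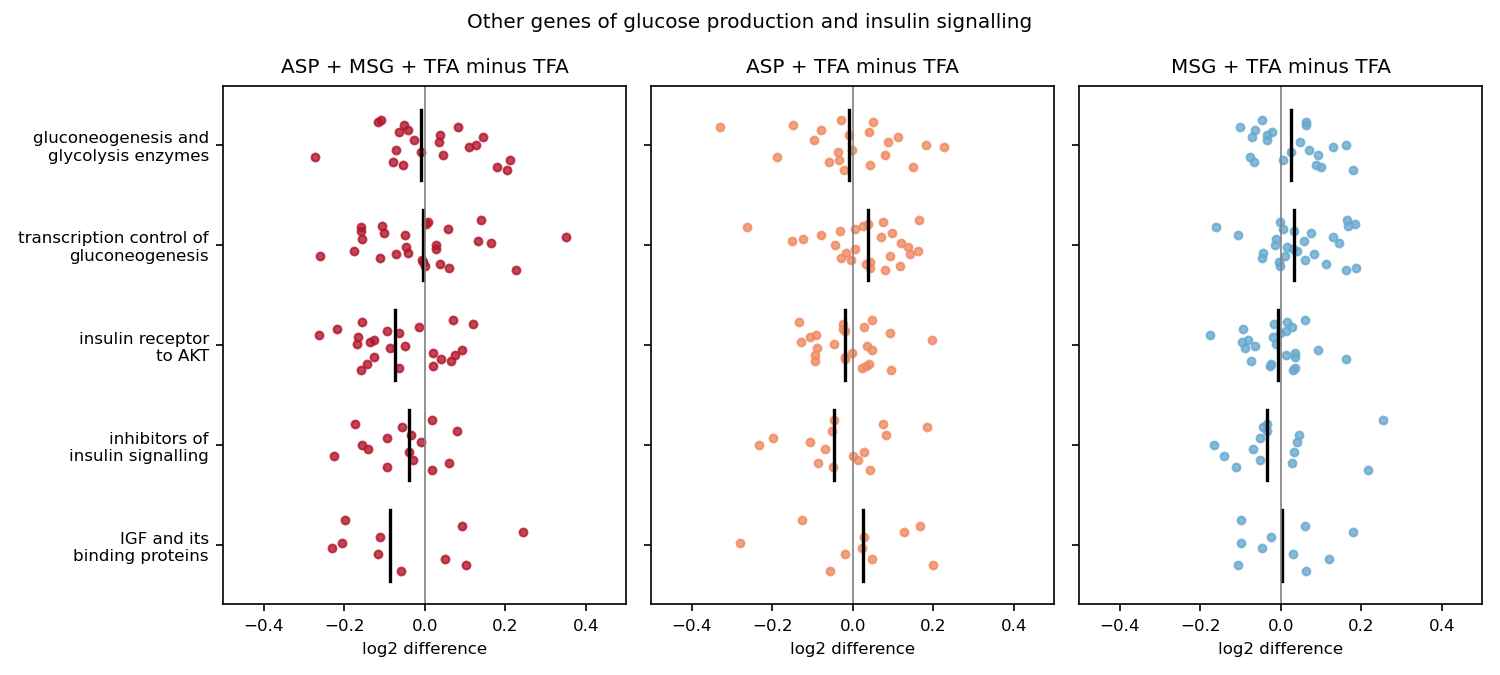
Log2 difference from the TFA diet of 97 pathway genes in 5 lists (points), with the median of each list (black line), for the ASP + MSG + TFA, ASP + TFA and MSG + TFA diets. The list medians lie between -0.085 and 0.037, and limma called 0 of the genes.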

How the data were processed

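Mouse livers of 4 diets were measured on 12 arrays, 3 per diet, and every array took the RNA of 5 pooled animals. The authors corrected the background with GCRMA and quantile-normalized the arrays in Partek, and the deposited values are linear intensities per probe set, from 14.75 to 68604. They were log2-transformed here with no added value, and rows with exactly 1 symbol (212138 of 241576) were averaged per gene. Diets were compared with 9 contrasts and an F test in 1 fit over the 12 arrays (limma 3.58.1, lmFit and eBayes, R 4.3.3). The spread between pools sets the p-values, which were adjusted by Benjamini-Hochberg within each comparison over 20422 genes, with 0.05 as the threshold for a call. The interaction is the ASP difference with MSG minus that without MSG. Correlations were tested two-sided with 100000 resamples (scipy 1.17.1), and figures drawn with matplotlib 3.10.9 (Python 3.11.15, numpy 2.4.6, pandas 2.3.3). The code was tested on simulated data.

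The number of arrays limits the precision. Levels of different genes come from different probes and were not compared. The text names all 9 genes, listed pathway genes past the threshold and the 3 per list with the smallest F test p, and for each of the 9 genes the 3 with the highest r, leaving out unnamed gene models and odorant-type receptors. The genes, lists and rules were chosen with earlier results of these data known. In the lists, Pkm was matched by its older symbol Pkm2, and listed genes without a value are not reported here. Promoter windows came from RefSeq (GRCm38.p6), where all 9 genes had an entry, and the probe set annotation gives no positions.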

Additional observations from a re-analysis of the deposited data

How the results depend on the processing

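Under 24 alternative settings (other normalization, probe set summary, variance model, weights, covariates, samples or single pools left out), limma and a plain linear model called 0 of the 9 genes in every comparison, with a smallest adjusted p of 0.192. Of 1917 values of the 9 genes, 140 had another sign than in the results above, all among differences that did not pass, and 44 moved by over 1 SD within diets. The number of gene pairs correlated past the threshold was 2, against 0 with the median over probe sets and 1 after a further quantile normalization, and 0 to 3 with single pools left out, namely 0 without MSG + TFA pool 1 or 2 or TFA pool 1, and 1 without ASP + TFA pool 1 or 3, MSG + TFA pool 3 or TFA pool 2 or 3. Where these counts came to 0 or 1, the cause was not tested.

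Counts over all genes were less stable. Those for ASP + MSG + TFA, ASP + TFA and MSG + TFA against TFA were 8, 58 and 4, and ranged over 0 to 76, 1 to 670 and 0 to 14. For ASP + MSG + TFA the counts were 5 (1 to 235) against ASP + TFA and 1 (0 to 5) against MSG + TFA, and ASP + TFA against MSG + TFA gave 0 (0 to 9). The MSG difference gave 2 (0 to 6), the ASP difference 0 (0 to 28), the interaction 14 (0 to 142) and the F test 23 (0 to 295). Array weights gave the highest of these counts in 7 of the 10 tests.

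Pools of different diets share replicate numbers. With the replicate number as a block, 0 of the 9 genes were called in each comparison. Of 18 pairs of same-numbered pools, 4 had deviations from the diet means that correlated above 0.1, within a range of -0.342 to 0.354, so the numbers were not taken to pair pools. A probe set dimmer than the median probe set occurred once each in Fbp1, Pcx and Pklr and in none of the other 6 genes, so signal over background limits few of these values.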
